A study of Mus musculus with 8 samples.

Results

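The genes described here are 6 mouse counterparts of human disease genes: Htt, whose expanded form causes Huntington disease, and Lrrk2, Pink1, Vps35, Park7 and Gch1, which are linked to inherited or familial forms of parkinsonism. They were chosen by name, and their rows were taken from each of the 4 count matrices, 6 of 32285 genes, over every annotated cluster and strain. Nuclear RNA had been measured in single nuclei of frozen striatum from 32 mice, 12 weeks old, 4 of each of 8 inbred strains. The wild-derived strains were CAST/EiJ, PWK/PhJ and WSB/EiJ, and the others were 129S1/SvImJ, NOD/ShiLtJ, A/J, NZO/HlLtJ and C57BL/6. The substrain of C57BL/6 is written as 6NJ in the deposited table and as 6J in the design text. A batch is a pool that held 1 mouse of every strain, so a mouse is named by its strain and batch, and batch effects are shared by all strains. The labels name no treatment or engineered allele, and the sex of each mouse was not used here. The design asks how expression in each cell type varies with genetic background.

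The striatum receives dopamine from midbrain neurons, and most of its own neurons are projection neurons that carry the dopamine receptor Drd1 or Drd2; these are the neurons that degenerate early in Huntington disease. Huntingtin, the product of Htt, is a large scaffold protein of vesicle transport and transcription. Lrrk2 encodes a kinase that phosphorylates Rab GTPases, Vps35 a core subunit of the retromer that returns cargo from endosomes, Pink1 a kinase that marks damaged mitochondria for removal, Park7 the redox-sensitive protein DJ-1, and Gch1 GTP cyclohydrolase, the rate-limiting enzyme of tetrahydrobiopterin, the cofactor that tyrosine hydroxylase and nitric oxide synthases need. In the RefSeq annotation of GRCm38.p6, Htt lies on chromosome 5 from 34761721 to 34912534, Lrrk2 on chromosome 15 from 91672791 to 91816124, Pink1 on chromosome 4 from 138313409 to 138326296, and Vps35 on chromosome 8 from 85260385 to 85299517. Park7 lies on chromosome 4 from 150897133 to 150909921 and Gch1 on chromosome 14 from 47153895 to 47189413.

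RefSeq promoter entries (GRCm38.p6) existed for 5 of the members. The 250 bases before the annotated start are printed for Gch1, the member with the narrowest cell type range, and for Pink1 and Park7, whose levels over clusters were alike, so that their promoters can be compared. The genes are on the minus strand. Capitals mark matches, on either strand, to any of 5 motifs. A GC box reads GGGCGG. The CCAAT box is named by its letters. A TATA box was searched as TATAAA. The start of a cAMP response element was searched as TGACG. The last motif is the core of the NRF1 site. These motifs were chosen with the sequences in view, and no printed match overlaps another.
Gch1, chr14:47189414-47189663: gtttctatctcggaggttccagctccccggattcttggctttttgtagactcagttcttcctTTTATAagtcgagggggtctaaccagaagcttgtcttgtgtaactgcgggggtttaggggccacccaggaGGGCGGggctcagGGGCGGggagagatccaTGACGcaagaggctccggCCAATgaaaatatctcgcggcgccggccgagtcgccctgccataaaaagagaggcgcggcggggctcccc
Pink1, chr4:138326297-138326546: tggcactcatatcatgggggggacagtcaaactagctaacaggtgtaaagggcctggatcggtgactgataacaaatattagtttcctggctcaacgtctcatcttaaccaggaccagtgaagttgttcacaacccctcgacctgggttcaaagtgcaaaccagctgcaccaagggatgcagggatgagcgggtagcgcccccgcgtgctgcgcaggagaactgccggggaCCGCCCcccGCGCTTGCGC
Park7, chr4:150909922-150910171: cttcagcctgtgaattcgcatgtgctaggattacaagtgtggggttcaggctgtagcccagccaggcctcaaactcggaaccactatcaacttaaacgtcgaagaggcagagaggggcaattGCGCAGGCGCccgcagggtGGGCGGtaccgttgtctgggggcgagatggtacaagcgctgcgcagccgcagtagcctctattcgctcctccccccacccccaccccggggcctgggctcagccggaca

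The Pink1 and Park7 windows each held 1 GC box and 1 NRF1 core and none of the other motifs. The Gch1 window held 2 GC boxes and 1 match each to the other motifs except the NRF1 core, which it lacked. Of 32536 promoter windows of the same length, 3.77% held the NRF1 core, 33.0% a GC box, 33.8% a CCAAT box, 12.3% a TATA box and 17.9% the start of a cAMP response element. A region of the deposited list of 291715 accessible regions covered the start of Pink1 and that of Park7, and none covered the start of Gch1, where the nearest region's centre was 545 bases away. The list is a single one for all nuclei, so it shows no cell type, and a match in a window is a description of letters only.

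The 55672 nuclei kept by the authors, of 89339 barcodes, fell into 18 annotated clusters, with 944 to 4416 nuclei and 3785535 to 23245935 counts per mouse. Batch 3 was the shallowest, with a median of 3232 counts per nucleus against 4593 to 4931 in the other batches. Of 54141 barcode sequences, 1517 occurred in more than 1 batch, as different nuclei. Cluster names were checked on marker genes: Drd1 was at 219 CPM (counts per 1000000 of a cluster's total) in Drd1+ neurons and Drd2 at 437 CPM in Drd2+ neurons. Of the other markers of Drd1+ neurons, Pdyn was highest there (52.5 CPM), Tac1 in the second Drd1+ cluster (612 against 310 CPM) and Isl1 in Chat+ interneurons (143 against 23.6 CPM). Of 5 markers of eccentric projection neurons, 4 were highest in the second Drd1+ cluster, such as Casz1 and Otof at 132 and 220 CPM. The other, Htr7, was at 5.93 CPM there and highest in Nxph1+ interneurons (43.3 CPM). The cluster of mural cells held the mural markers Pdgfrb (662 CPM) and Vtn (2692 CPM) at their highest, but also 503 CPM of Penk and 82.0 CPM of Adora2a, both markers of Drd2+ neurons. The mural marker Rgs5 was highest in endothelium (1854 CPM against 403 in mural cells), which also held 731 CPM of Vtn and 119 CPM of Pdgfrb. Of the markers of dopamine neurons, Th was at 9.87 CPM or less in every cluster, En1 at 2.56 or less and Slc6a3 at 0.237 or less, and Slc18a2 reached 19.7 CPM in fibroblasts and 18.3 CPM in Nxph1+ interneurons. A total of 58469 counts belonged to Lrrk2, 28290 to Htt, 12397 to Vps35, 9042 to Park7, 8720 to Pink1 and 296 to Gch1; these totals depend on gene length and are not compared between genes.

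Lrrk2 was highest in the projection neurons. Over 32 mice its level (lowest, median, highest) was 194.9, 385.3 and 598.2 CPM in the second Drd1+ cluster, 181, 300.2 and 500.0 CPM in Drd2+ neurons and 163, 247.9 and 375 CPM in Drd1+ neurons. In oligodendrocytes, which form myelin, it was 0, 6.01 and 16.1 CPM, and in macrophages, the cluster that holds microglia, 0, 8.78 and 24.6 CPM. No mouse's oligodendrocyte or macrophage level reached any mouse's level in the projection neuron clusters. At least 1 Lrrk2 count was found in 71.0% of Drd1+ nuclei, at a median depth of 6505 counts, and in 1.16% of oligodendrocyte nuclei, at 1640 counts.

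**Figure D1:**
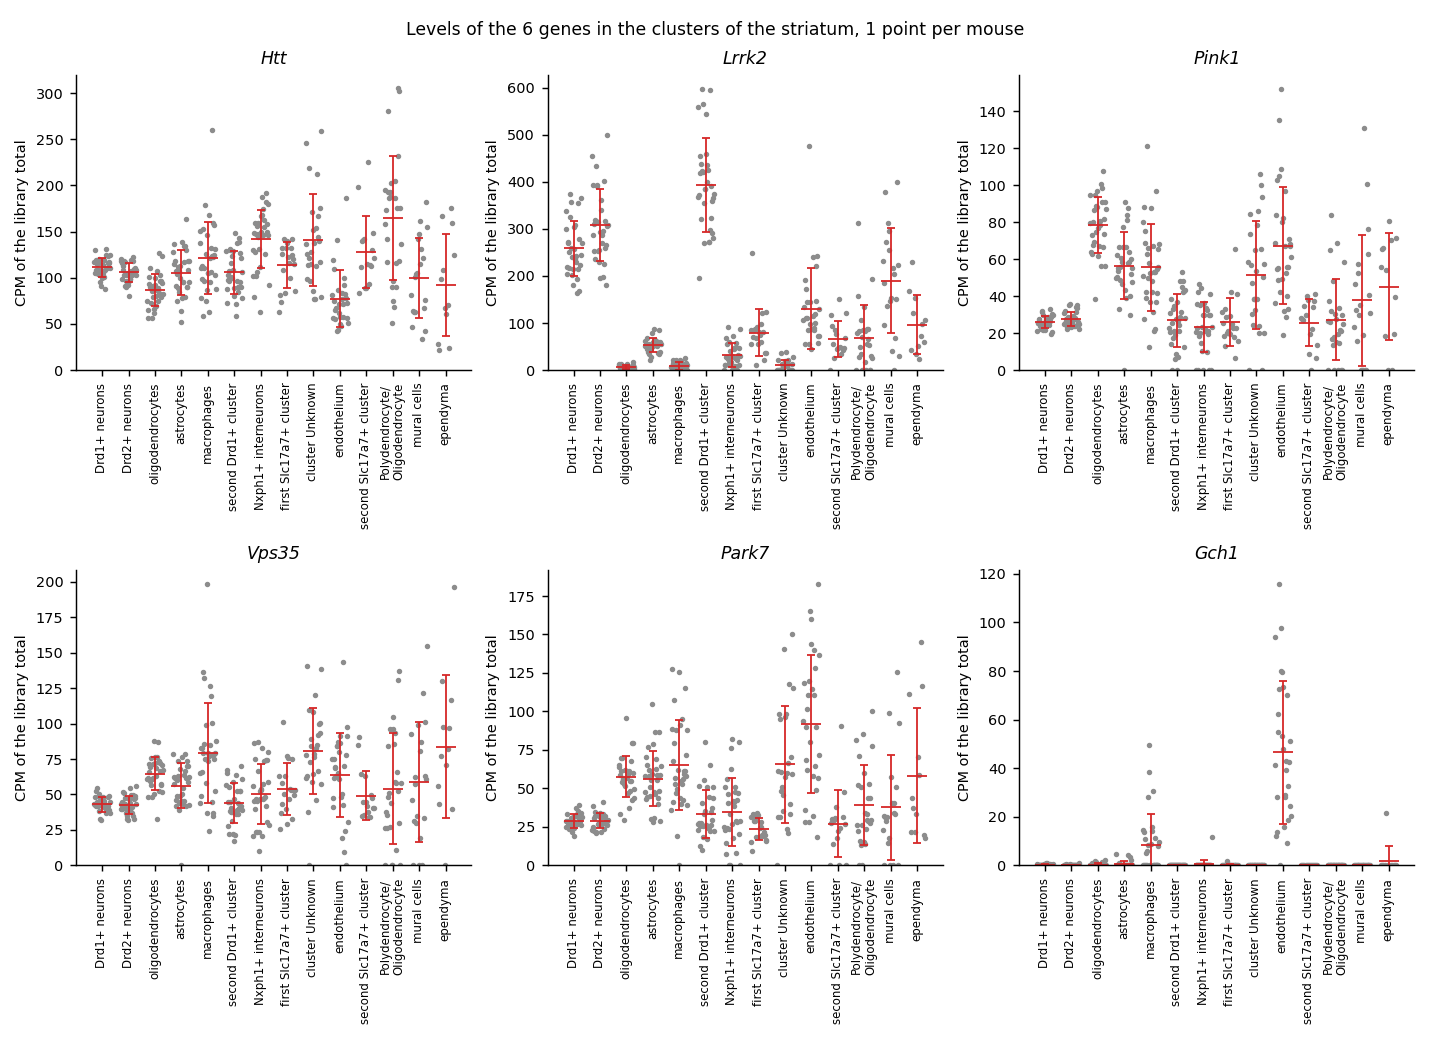
Level of each gene (CPM of the library total, linear axis from 0) by cluster, 1 point per mouse with at least 10 nuclei in the cluster, with the mean and SD over mice in red. Clusters with fewer than 10 such mice are not drawn. Among those drawn, Lrrk2 is highest in the second Drd1+ cluster, Drd2+ and Drd1+ neurons, Gch1 in endothelium, and Pink1 and Park7 are higher in oligodendrocytes, astrocytes, macrophages and endothelium than in projection neurons.

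Mean levels of Lrrk2 were 394 ± 99.9 CPM in the second Drd1+ cluster, 308 ± 76.8 CPM in Drd2+ neurons and 259 ± 58.4 CPM in Drd1+ neurons (SD, n = 32 mice each). As a share of RNA, each of these steps in the order passed an adjusted p under 0.05 in a test of the mean difference within mice. The second Drd1+ cluster was above Drd2+ neurons in 26 of 32 mice (sign-flip permutation test, two-sided, adjusted p = 0.000577), and Drd2+ neurons were above Drd1+ neurons in 32 of 32 (adjusted p = 0.000385). The first of these steps was not found per nucleus, where the pooled values were 187.8 Lrrk2 counts per 100 nuclei in the second Drd1+ cluster and 191.0 in Drd2+ neurons, and the mean difference over mice was 4.05 (adjusted p = 0.755). Over clusters with at least 10 mice, the order then ran through mural cells (190 ± 111 CPM, n = 20), endothelium (131 ± 85.2 CPM, n = 29), ependyma (96.5 ± 62.5 CPM, n = 12), the first Slc17a7+ cluster (79.5 ± 49.3 CPM, n = 20), the cluster Polydendrocyte/Oligodendrocyte (68.1 ± 70.4 CPM, n = 27) and the second Slc17a7+ cluster (66.1 ± 39.2 CPM, n = 16) to astrocytes (52.9 ± 14.8 CPM, n = 32). Endothelial Lrrk2 had a mean of 249.9 ± 139.5 CPM in batch 3 (SD, n = 5) and of 78.7 to 129.7 CPM in the other batches. Drd1+ neurons of batch 3 were at 265.6 CPM. The reason for this batch difference was not tested. Drd1+ neurons were above mural cells in 16 of 20 mice (adjusted p = 0.0136). From mural cells down to astrocytes no neighbour that could be compared over at least 10 mice passed an adjusted p under 0.05. Astrocytes were above Nxph1+ interneurons (32.2 ± 25.1 CPM) in 27 of 32 mice (adjusted p = 0.00801), though per nucleus the order was reversed and without batch 2 or 3 the difference was not called (adjusted p = 0.052 and 0.148), and Nxph1+ interneurons were above the cluster Unknown (9.99 ± 11.6 CPM) in 21 of 26 (adjusted p = 0.000513). Clusters with fewer mice were left out of the order, namely Unknown_2 (269.7 ± 90.2 CPM, n = 2), fibroblasts (91.0 ± 76.0 CPM, n = 2), Sst+ interneurons (30.1 ± 16.1 CPM, n = 2) and Chat+ interneurons (25.9 ± 6.17 CPM, n = 3). Pooled over all nuclei of each cluster, the levels were far from these means, at 227.1, 126.1, 67.9 and 36.3 CPM in the same order. Only 6 of 77 neighbour pairs over all members passed, and 5 of these were pairs of Lrrk2.

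Where Lrrk2 was intermediate, genes of projection neurons were also found, at levels near it in some clusters and far from it in others. As a percentage of the pooled level in Drd1+ neurons, Lrrk2 stood at 84.6% in mural cells, and Pde10a, Rgs9 and Bcl11b, defining genes of projection neurons, at 76.2%, 71.2% and 74.3%. In endothelium the values were 46.8% for Lrrk2 and 37.1%, 36.9% and 38.9% for these markers. In the cluster Polydendrocyte/Oligodendrocyte they were 30.3% for Lrrk2 and 30.1%, 30.2% and 28.1%. In oligodendrocytes Lrrk2 was at 2.66%, under the 3.44%, 5.04% and 12.2% of the same markers. In astrocytes Lrrk2 was at 21.0% and the markers at 6.64%, 5.51% and 13.9%. Lrrk2 was also above all 3 markers in fibroblasts (48.1% against 14.8%, 7.67% and 28.3%) and in the smallest cluster, Unknown_2 (86.7% against 18.1%, 16.8% and 11%). The same held, by less, in ependyma (45.8% against 38.4%, 35.1% and 42.9%) and Chat+ interneurons (13.9% against 5.23%, 4.54% and 12.8%). In the first Slc17a7+ cluster it was at 29.7%, against 26.2% for Pde10a, 5.99% for Rgs9 and 45.6% for Bcl11b. The fourth marker, Ppp1r1b, went the other way and lay far above Lrrk2 in oligodendrocytes (77.4%), astrocytes (82.6%) and macrophages (82.5%, where Lrrk2 was at 3.73%). The reason for this was not tested. The part of projection neuron RNA in these Lrrk2 levels was not tested.

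Within mice, each cluster that held enough nuclei was compared with Drd1+ neurons by edgeR's quasi-likelihood test with the mouse as a block and Benjamini-Hochberg adjustment over all tested genes. Clusters had been annotated by the authors from expression in the same nuclei, so these tests describe classes that expression helped to define. In 8 of 41 comparisons a member passed the filter on low counts within only the cluster where it was higher (Lrrk2 in oligodendrocytes, macrophages, Nxph1+ interneurons and the cluster Polydendrocyte/Oligodendrocyte, Pink1 in the last 2 of these, Vps35 in the last, and Gch1 in endothelium). These had to differ to some extent, so their fold changes and tests are not given, and only the closing counts by processing setting include them. Of the other 33 comparisons, 21 were called at an adjusted p under 0.05, against a background of called genes that differed much between clusters: 31.5% of all tested genes for Drd2+ neurons, 42.5% for the second Drd1+ cluster, 51.2% for Nxph1+ interneurons, 52.3% for the cluster Polydendrocyte/Oligodendrocyte, 77.8% for endothelium, 79.7% for macrophages, 81.7% for astrocytes and 86.3% for oligodendrocytes. Counts near these shares are not particular to the members. The median log2 fold change of all genes was -0.24 in the cluster Polydendrocyte/Oligodendrocyte, -0.16 in macrophages and -0.15 in endothelium, and within 0.031 of 0 in the other clusters. Lrrk2 was called in the 4 comparisons left to it, with log2 fold changes of 0.56 (SE 0.047) in the second Drd1+ cluster, 0.27 (SE 0.018) in Drd2+ neurons, -1.33 (SE 0.11) in endothelium and -2.50 (SE 0.086) in astrocytes, and edgeR adjusted p-values of 1.61e-16 or less.

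**Figure D2:**
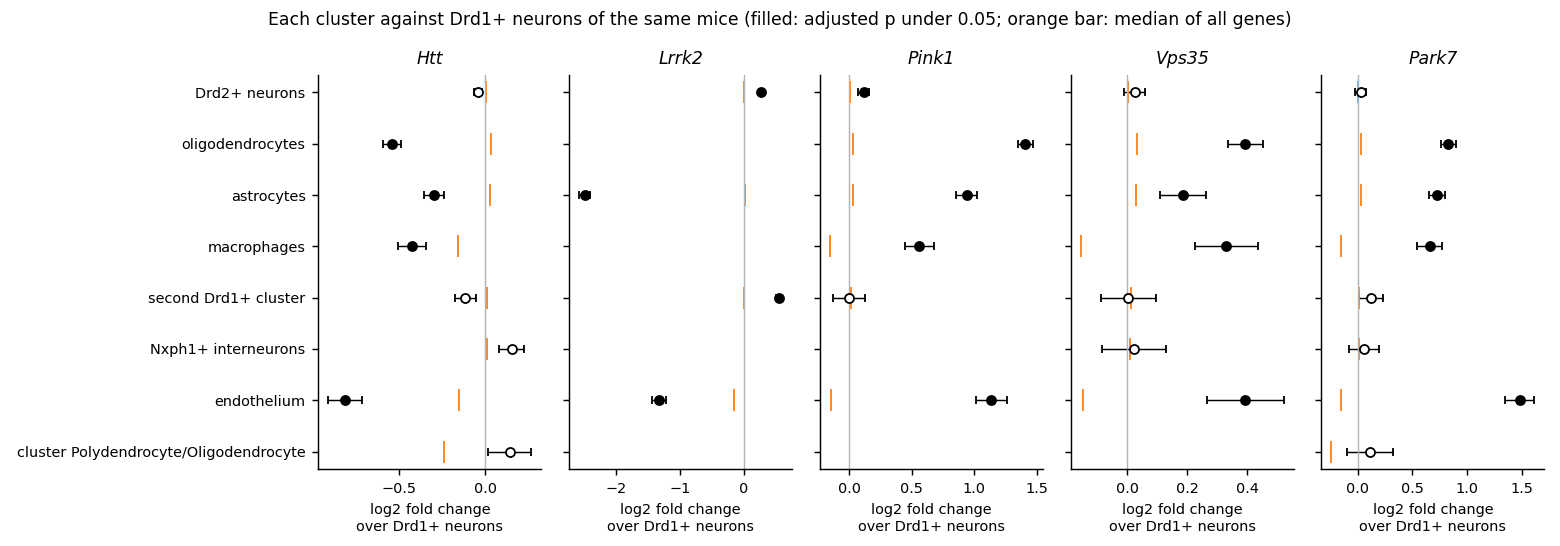
Log2 fold change (edgeR) of 5 genes in each tested cluster over Drd1+ neurons of the same mice, with bars of 1 SE; filled points passed an adjusted p under 0.05, orange ticks mark the median of all genes, and empty rows are comparisons left out for the filter. Lrrk2 lies below 0 in astrocytes and endothelium and above 0 in Drd2+ neurons and the second Drd1+ cluster, and Pink1 and Park7 lie above 0 in oligodendrocytes, astrocytes, macrophages and endothelium.

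Pink1, the mitochondrial kinase, took a larger share of nuclear RNA in oligodendrocytes, astrocytes, macrophages and endothelium than in projection neurons. Its lowest, median and highest level was 38.3, 79.1 and 107.5 CPM in oligodendrocytes and 19.4, 25.8 and 32.8 CPM in Drd1+ neurons, so that the mice of these groups did not overlap. Mean levels were 78.4 ± 15.2 CPM in oligodendrocytes, 67.3 ± 31.6 in endothelium (n = 29), 56.5 ± 18 in astrocytes, 55.5 ± 23.4 in macrophages, 27.6 ± 3.99 in Drd2+ neurons and 26.0 ± 3.40 in Drd1+ neurons. Against Drd1+ neurons the log2 fold change was 1.41 (SE 0.059) in oligodendrocytes, 1.14 in endothelium, 0.94 in astrocytes and 0.56 in macrophages, all with edgeR adjusted p-values of 1.28e-05 or less. The cluster Polydendrocyte/Oligodendrocyte was at 27.1 ± 21.9 CPM (n = 27), near both projection neuron classes. Counted per nucleus, the order of oligodendrocytes and Drd1+ neurons was the opposite, with 13.8 Pink1 counts per 100 oligodendrocyte nuclei and 17.4 per 100 Drd1+ nuclei, and oligodendrocyte nuclei held fewer counts of all genes (median 1640 against 6505). Astrocytes (14.1 per 100 nuclei) and macrophages (8.53) were also below Drd1+ neurons by this measure, and endothelium was higher by both, at 33.0 counts per 100 nuclei.

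Park7, which encodes DJ-1, was highest in endothelium. There its lowest, median and highest level over 29 mice was 18.6, 90.2 and 182.9 CPM, against 19.05, 28.7 and 39.3 CPM in Drd1+ neurons, and the ranges overlapped at the low end. Its mean was 91.7 ± 45 CPM in endothelium, 65.0 ± 29.2 in macrophages, 57.5 ± 13.4 in oligodendrocytes, 56.4 ± 17.8 in astrocytes, 29.0 ± 4.80 in Drd2+ neurons and 28.9 ± 4.43 in Drd1+ neurons. Endothelial Park7 had a mean of 48.6 ± 45.1 CPM in batch 3 (n = 5) and of 77.5 to 112.6 CPM in the other batches. The log2 fold change over Drd1+ neurons was 1.48 (SE 0.13) in endothelium, 0.83 in oligodendrocytes, 0.72 in astrocytes and 0.66 in macrophages, with edgeR adjusted p-values of 5.45e-07 or less. Per 100 nuclei there were 48.2 Park7 counts in endothelium, 19.4 in Drd1+ neurons and 10.2 in oligodendrocytes, so only endothelium stayed above neurons by this measure.

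Vps35, the retromer subunit, had smaller fold changes between clusters. Its mean level was 79.5 ± 35.4 CPM in macrophages, 64.6 ± 11.7 in oligodendrocytes, 63.7 ± 29.9 in endothelium (n = 29), 56.2 ± 15.8 in astrocytes, 43.1 ± 5.15 in Drd1+ neurons and 42.9 ± 6.39 in Drd2+ neurons. Oligodendrocyte levels spanned 32.7 to 88.0 CPM and Drd1+ levels 32.1 to 54.8 CPM, with overlap. The log2 fold change over Drd1+ neurons was 0.39 (SE 0.058; edgeR adjusted p = 4.31e-08) in oligodendrocytes, 0.39 (SE 0.13; adjusted p = 0.00455) in endothelium and 0.33 (SE 0.11; adjusted p = 0.00372) in macrophages. The endothelial call was lost without batch 1 (adjusted p = 0.0711) and without batch 2 (adjusted p = 0.0873), and the macrophage call under DESeq2's size factors (adjusted p = 0.482), and both were lost without a filter on low counts (0.853 and 0.85). In astrocytes the value of 0.19 (adjusted p = 0.0236) turned to -0.0079 under DESeq2's size factors and to -0.068 without a filter on low counts, so no direction is given. Per nucleus Vps35 was lower in oligodendrocytes and macrophages, with 11.4 and 11.9 counts per 100 nuclei against 29.2 in Drd1+ neurons, and higher in endothelium (34.1).

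Htt was found in all 18 clusters. Its lowest, median and highest level was 87.6, 110.4 and 130.7 CPM in Drd1+ neurons and 79.8, 105.8 and 122.4 CPM in Drd2+ neurons, the neurons lost early in Huntington disease. The mean CPM was 111 ± 10.4 for Drd1+ neurons and 106 ± 10.1 for the Drd2+ class (22 of 32 mice higher in Drd1+, sign-flip permutation test, adjusted p = 0.0949), and the fitted log2 difference of Drd2+ from Drd1+ neurons was -0.041 (SE 0.024; edgeR adjusted p = 0.212), which became a call of -0.067 (adjusted p = 0.0244) without scaling beyond the library total. Other clusters had means of 165 ± 67.4 CPM (Polydendrocyte/Oligodendrocyte, n = 27), 142 ± 31.4 (Nxph1+ interneurons), 106 ± 23.9 (astrocytes), 86.8 ± 17.2 (oligodendrocytes) and 77.2 ± 31.0 (endothelium, n = 29). Sst+ interneurons, with 165 nuclei in all, had a pooled level of 177.7 CPM (95% exact Poisson interval of counting error 149.1 to 210.2). Endothelial Htt had a mean of 110.2 ± 57.9 CPM in batch 3 (n = 5) and of 60.7 to 82.6 CPM in the other batches. None of the neighbours in the order of Htt levels passed an adjusted p under 0.05 in the sign-flip permutation test. Against Drd1+ neurons, Htt was called lower in oligodendrocytes (log2 fold change -0.54, SE 0.053; edgeR adjusted p = 5.56e-13) and endothelium (-0.81, SE 0.098; adjusted p = 5.96e-11). In astrocytes the call of -0.30 became -0.050 (adjusted p = 0.427) without scaling beyond the library total, and in macrophages -0.43 became 0.13, so that the direction there depended on the scaling. Without that scaling Htt was also called higher in Nxph1+ interneurons (0.39) and in the cluster Polydendrocyte/Oligodendrocyte (0.55), where the scaled values of 0.15 and 0.14 were not called.

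Gch1 was highest in endothelium. Of its 296 counts, 213 came from the 851 endothelial nuclei, a pooled level of 50.6 CPM (95% exact Poisson interval 44.0 to 57.8), and 17.3% of endothelial nuclei had at least 1 count, at a median depth of 3821 counts. Macrophages followed with 35 counts, 8.77 CPM (6.11 to 12.2), and 16 of 32 mice at 0. Drd1+ neurons held 19 counts in 15395 nuclei (0.183 CPM), Drd2+ neurons 8 counts in 13203 nuclei (0.0983 CPM, 0.053% of nuclei at a median depth of 5953 counts), oligodendrocytes 6 and astrocytes 6. Endothelium was above macrophages in 26 of 29 mice (sign-flip permutation test, adjusted p = 0.000385), and the endothelial marker Cldn5 was at 1374 CPM in endothelium and 14.5 CPM in macrophages. Endothelial Gch1 had a mean of 17.9 ± 15.6 CPM in batch 3 (n = 5) and of 41.9 to 61.9 CPM in the other batches. In Drd1+ neurons 18 of 32 mice had no Gch1 count. Among comparisons of clusters, Gch1 passed the filter on low counts only in the one of endothelium with Drd1+ neurons, that is through the group where it is high. In 7 clusters no count was found, which allows up to 0.414 CPM in the second Drd1+ cluster and up to 14.8 CPM in the smallest cluster, Unknown_2, at 3 counts of the total. Intervals and limits cover counting error only.

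Endothelial Gch1 was 72.5, 115.6, 0 and 97.8 CPM in the C57BL/6 mice of batches 1 to 4, 79.9, 79.7 and 53.3 CPM in the CAST/EiJ mice of batches 1, 2 and 4, and 27.95, 39.2, 42.8 and 9.25 CPM in the NZO/HlLtJ mice. The strains overlapped, and the strain term was not called for Gch1 (edgeR adjusted p = 0.529).

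The 2 classes of projection neuron differed in the members as follows. Of the 5 members tested between Drd2+ and Drd1+ neurons, Lrrk2 and Pink1 were called, both higher in Drd2+ neurons. For Lrrk2 the edgeR adjusted p was 3.23e-25. The Pink1 value of 0.12 (SE 0.045; adjusted p = 0.0365) was a small difference that was not called by DESeq2 (adjusted p = 0.0983), without the mouse as a block (adjusted p = 0.173), without a filter on low counts or without scaling (0.121 for each), or without batch 1 (0.062, adjusted p = 0.446) or batch 3 (adjusted p = 0.0556). Vps35 and Park7 each differed by 0.025 (SE 0.036 and 0.047), which was not called.

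The strain of the mouse was tested in 9 clusters with batch in the model. In Drd1+ neurons the strain term called 61.7% of all tested genes and 1 of 5 members, Park7 (edgeR adjusted p = 0.0315), and in Drd2+ neurons 55.9% of genes and 1 of 5 members, Htt (adjusted p = 0.0258). DESeq2 called 1 member in Drd1+ neurons (57.9% of all genes) and 2 in Drd2+ neurons (52.2%), including Lrrk2 in each class. In the other 7 clusters edgeR called 0 of 26 tested combinations of member and cluster, 3 had an unadjusted p under 0.05, and DESeq2 called 0; the share of all genes called there was 34.8% in oligodendrocytes, 24.8% in macrophages, 21.5% in astrocytes, 17.3% in the second Drd1+ cluster, 3.23% in endothelium, 1.53% in Nxph1+ interneurons and 1.24% in the cluster Polydendrocyte/Oligodendrocyte. In none of the tested clusters did all mice of a strain (3 or 4 with enough nuclei) lie outside the range of the other mice for any member. Such separation was not counted for all genes, so it cannot be told whether its absence is particular to the members.

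In Drd1+ and Drd2+ neurons the highest strain mean of Lrrk2 was 1.59 and 1.64 times the lowest, and for the other tested members this ratio was 1.16 to 1.40. In Drd1+ neurons of batches 1 to 4 it was 375.3, 325.6, 356.6 and 259.6 CPM in C57BL/6, 240.7, 201.8, 215.6 and 181.3 CPM in CAST/EiJ, and 242.2, 229.0, 163.2 and 193.1 CPM in NZO/HlLtJ. Every C57BL/6 mouse was above every CAST/EiJ and NZO/HlLtJ mouse. Other strains spread across both ranges, such as PWK/PhJ with 354.7, 214.3, 278.1 and 168.8 CPM, WSB/EiJ with 224.4, 244.2, 365.6 and 269.1 CPM, and 129S1/SvImJ with 337.3, 300.3, 219.2 and 203.3 CPM. The lowest strain mean was 207 ± 35.8 CPM, of NZO/HlLtJ, and the highest 329 ± 50.8 CPM, of C57BL/6 (SD, n = 4), and batch means ran from 220 CPM in batch 4 to 288 CPM in batch 1.

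**Figure D3:**
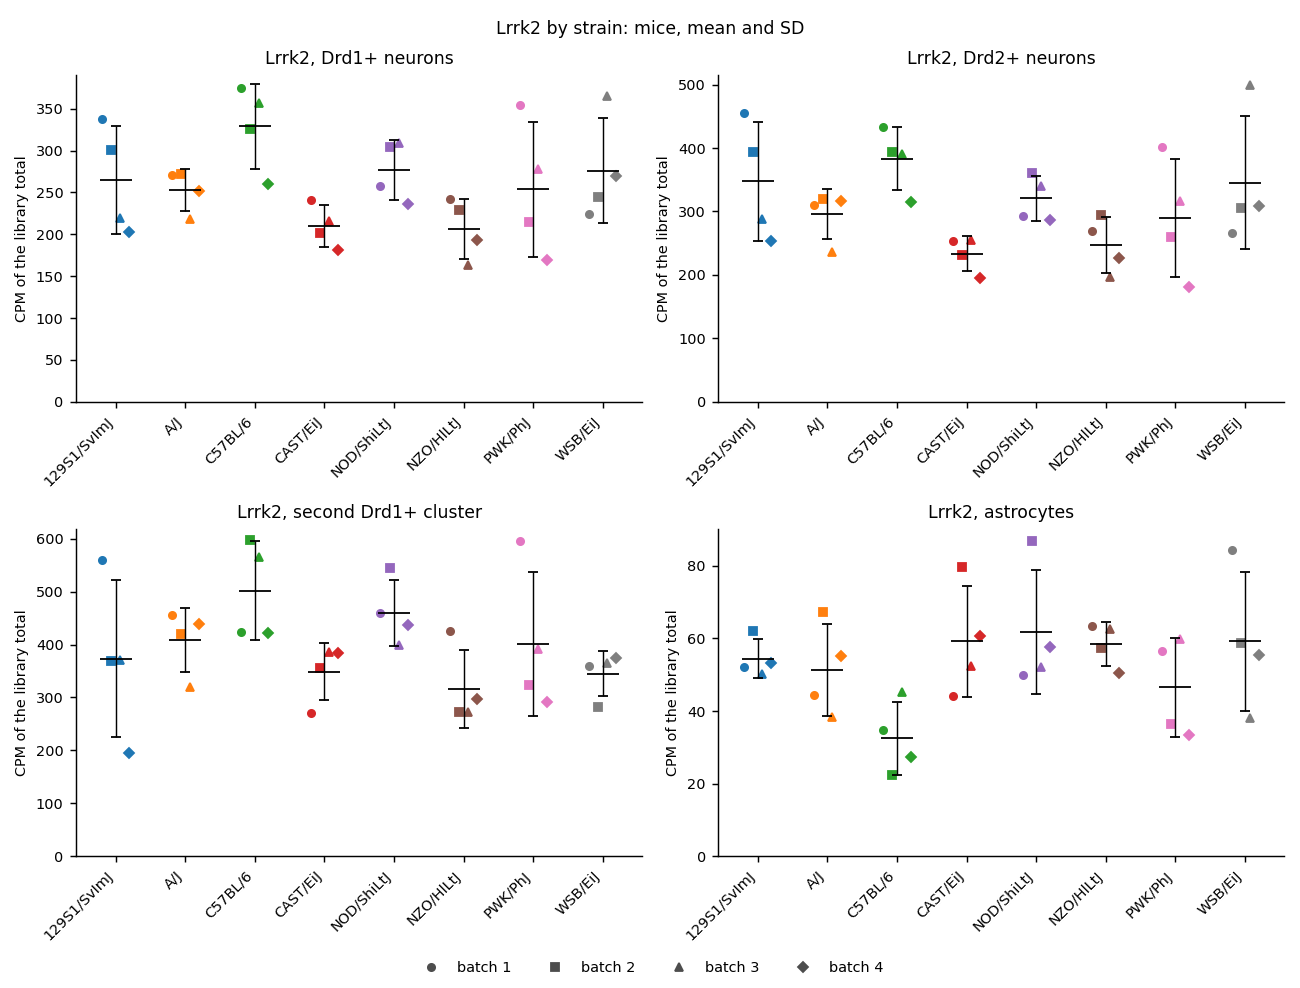
Lrrk2 level (CPM of the library total) by strain in Drd1+ neurons, Drd2+ neurons, the second Drd1+ cluster and astrocytes, 1 point per mouse with a colour per strain and a shape per batch, and the mean and SD of each strain as black lines. C57BL/6 has the highest mean in the 3 projection neuron clusters (329, 383 and 502 CPM) and the lowest mean in astrocytes (32.5 CPM).

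The strain term for Lrrk2 missed the threshold in Drd1+ neurons (edgeR adjusted p = 0.0663), Drd2+ neurons (0.0728) and the second Drd1+ cluster (0.0727; called without batch 1 or 4, with 0.000814 and 0.0226). It was called by DESeq2 in Drd1+ and Drd2+ neurons (adjusted p = 0.0232 and 0.0287), and also by edgeR without scaling beyond the library total (0.0353 and 0.0414) or without a filter on low counts (3.48e-18 and 4.91e-21); the cause was not tested. C57BL/6 against the mean of the other 7 strains had a log2 fold change of 0.44 (SE 0.14; edgeR adjusted p = 0.0426) in Drd1+ neurons, a contrast in which 13.9% of all genes were called. Without batch 1, 2, 3 or 4 the value was 0.40 to 0.49 and no longer called (adjusted p = 0.0967 to 0.145), nor was it called without batch in the model (0.0749). In Drd2+ neurons the same contrast gave 0.41 (adjusted p = 0.117). Reads of all strains were counted on 1 reference (mm10), and its part in these strain differences was not tested.

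Mice with more Lrrk2 in Drd1+ neurons also had more in Drd2+ neurons, between strains and within them. This comparison was added after the levels had been seen, and 5 members were compared in it. Over 32 mice the log2 levels in the 2 classes had r = 0.963 and rho = 0.962 (permutation p = 1e-05 for each, the smallest that 100000 resamples can give; adjusted p = 5e-05), and r = 0.958 without the 2 mice farthest from the median in Drd1+ neurons. With strain means subtracted r was 0.968, and within batches 1 to 4 it was 0.960, 0.971, 0.957 and 0.977 (n = 8 each). The other members were less alike: r was 0.464 for Htt and 0.445 for Vps35 (permutation adjusted p = 0.0178 for each), 0.295 for Pink1 (0.125) and 0.220 for Park7 (0.224), and within batches r for Htt ran from 0.020 to 0.842. With strain means subtracted, r was 0.306 for Htt (permutation p = 0.0891) and 0.294 for Vps35 (0.103).

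**Figure D4:**
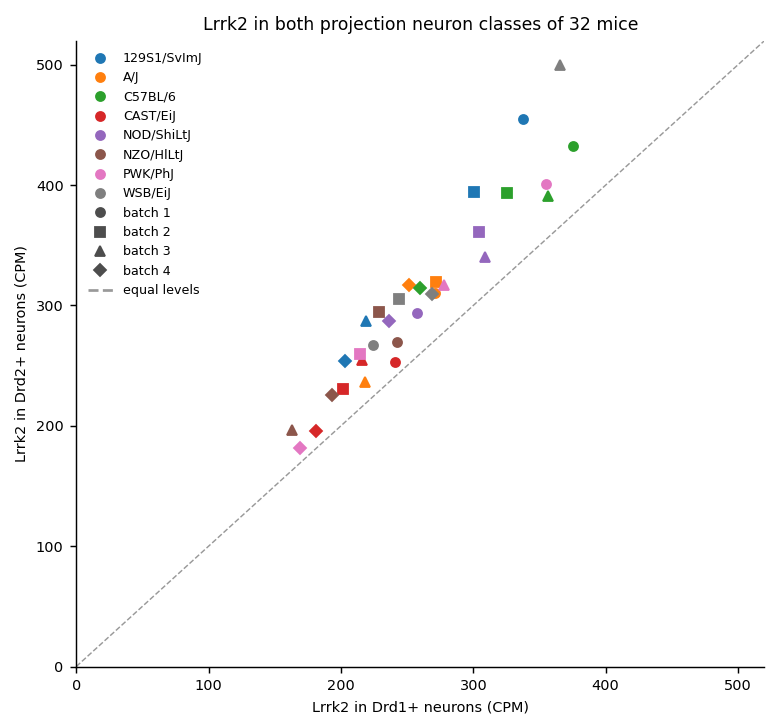
Lrrk2 level in Drd2+ neurons against that in Drd1+ neurons (CPM of the library total, both axes linear from 0), 1 point per mouse, with a colour per strain and a shape per batch and a dashed line of equal levels. All 32 mice lie above the line, and the PWK/PhJ mice alone spread from 168.8 to 354.7 CPM along it.

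A high correlation between the classes was common among well-expressed genes, with which the Lrrk2 value is to be read. Among 1690 genes of at least 100 CPM in both classes, the median r with strain means subtracted was 0.710 (5th to 95th percentile 0.217 to 0.935), 30 genes had a higher r than Lrrk2, and 80 had a larger SD between mice of a strain than its 0.283 on the log2 scale (median 0.134). For Htt, 1533 of these genes had a higher r. Vps35, Pink1 and Park7 were below 100 CPM on average and so lay outside this background. The part of counting error in their lower r was not tested. Within strains, Lrrk2 in Drd1+ neurons had r = 0.461 with the summed CPM of the 4 projection neuron markers, Ppp1r1b included (permutation adjusted p = 0.0396 over 5 measures). By ranks, rho was 0.361 (permutation p = 0.0425 before adjustment), and r was 0.331 without the 2 farthest mice. Lrrk2 had r = 0.014 with counts per nucleus, -0.101 with the percentage of oligodendrocytes among the mouse's nuclei, -0.111 with that of the second Drd1+ cluster and -0.148 with that of the Slc17a7+ clusters (permutation adjusted p = 0.726 or above for each). Batch means were not subtracted for these 5 measures. The part of these measures in the Lrrk2 levels was not tested further.

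In astrocytes the strain order of Lrrk2 was different. The C57BL/6 mice of batches 1 to 4 had 34.9, 22.3, 45.2 and 27.4 CPM in astrocytes (39 counts in all), the lowest strain mean (32.5 ± 9.95 CPM), and the NOD/ShiLtJ mice, with the highest mean (61.7 ± 17.1 CPM), had 50.1, 86.9, 52.2 and 57.6 CPM. The strains overlapped, since the lowest values of PWK/PhJ were 33.4 and 36.4 CPM. In astrocytes alone, C57BL/6 against the other 7 strains gave -0.86 (SE 0.24; edgeR adjusted p = 0.0223; 3.36% of all genes called), which was lost without batch 1 (adjusted p = 0.0762), 2 (0.331) or 4 (0.151), and the strain term for Lrrk2 was not called there (0.103). The interaction of strain with cluster over Drd1+ neurons and astrocytes, a test added after the levels had been seen, was called for 1 of 5 members, Lrrk2 (F = 4.93, edgeR adjusted p = 0.00093), and for 11.4% of all genes. It was not called without batch 2 (adjusted p = 0.0916) or without the mouse as a block (0.0947). The difference of astrocytes from Drd1+ neurons in log2 CPM was -3.38, -3.77, -2.88 and -3.17 in the C57BL/6 mice, and -3.17, -2.06 and -1.32 (lowest, median, highest) in the other 28 mice, 27 of which lay above all 4 C57BL/6 mice. The fitted contrast of C57BL/6 with the other 7 strains was -1.30 (SE 0.25; edgeR adjusted p = 0.000324; 1.1% of all genes called), and it ran from -1.10 to -1.42 with adjusted p-values of 0.0441 or less under the 9 alternatives. An exact permutation test of strain labels within batches gave a two-sided p of 0.000488 over 4096 arrangements, for a contrast that was chosen for its size. The C57BL/6 mouse was the lowest in 3 of the 4 batches, and in batch 3 the WSB/EiJ mouse was lower (-3.17 against -2.88). The summed CPM of Pde10a, Rgs9 and Bcl11b in astrocytes was 266 ± 100.3 in C57BL/6, within the range of strain means of 171 to 398. Ppp1r1b, at 82.6% of its Drd1+ level in astrocytes, was not in this sum. The part of projection neuron RNA in the C57BL/6 contrast was not tested. The interaction over Drd1+ and Drd2+ neurons called 0 of 5 members (4.58% of all genes called by edgeR); Lrrk2 had an unadjusted p of 0.00655 and an adjusted p of 0.109, the only 1 of 5 under 0.05 before adjustment, and DESeq2 was not run on it.

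Park7 and Htt, the members called by the strain term, showed smaller differences. Park7 in Drd1+ neurons was 31.5, 35.6, 30.95 and 39.3 CPM in PWK/PhJ (34.3 ± 3.90 CPM) and 19.05, 24.5, 26.9 and 27.7 CPM in NOD/ShiLtJ (24.5 ± 3.90 CPM), without overlap between these 2 strains, which are the extremes of 8. PWK/PhJ against the other 7 strains gave a log2 fold change of 0.25 (SE 0.091; edgeR adjusted p = 0.0288; 34.3% of all genes called). The strain term for Park7 was not called by DESeq2 (adjusted p = 0.0544), without batch in the model (0.0855), without batch 1 (0.167), without batch 2 (0.217) or without a filter on low counts. The contrast was not called without batch 1, 2 or 4 (0.0701 to 0.139) or without batch in the model. In Drd2+ neurons the strain term for Park7 had an adjusted p of 0.828, and the difference between the classes was not called (interaction adjusted p = 0.603).

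Htt in Drd2+ neurons was 79.8, 96.9, 98.6 and 98.8 CPM in NOD/ShiLtJ (93.5 ± 9.18 CPM) and 122.4, 118.5, 106.4 and 109.7 CPM in PWK/PhJ (114 ± 7.44 CPM), again the extremes of 8 strains, which did not overlap. NOD/ShiLtJ against the other 7 strains gave -0.21 (SE 0.065; edgeR adjusted p = 0.0253; 12.1% of all genes called). The strain term for Htt was lost without batch 1 (adjusted p = 0.439), 2 (0.0847) or 3 (0.0536), without batch in the model (0.101) and without a filter on low counts. The contrast was lost without batch 1 (-0.13, adjusted p = 0.332) or 2 (0.121). In Drd1+ neurons CAST/EiJ had the lowest mean (102 ± 7.37 CPM) and PWK/PhJ the highest (120 ± 8.96 CPM), and the strain term was not called there (adjusted p = 0.432).

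**Figure D5:**
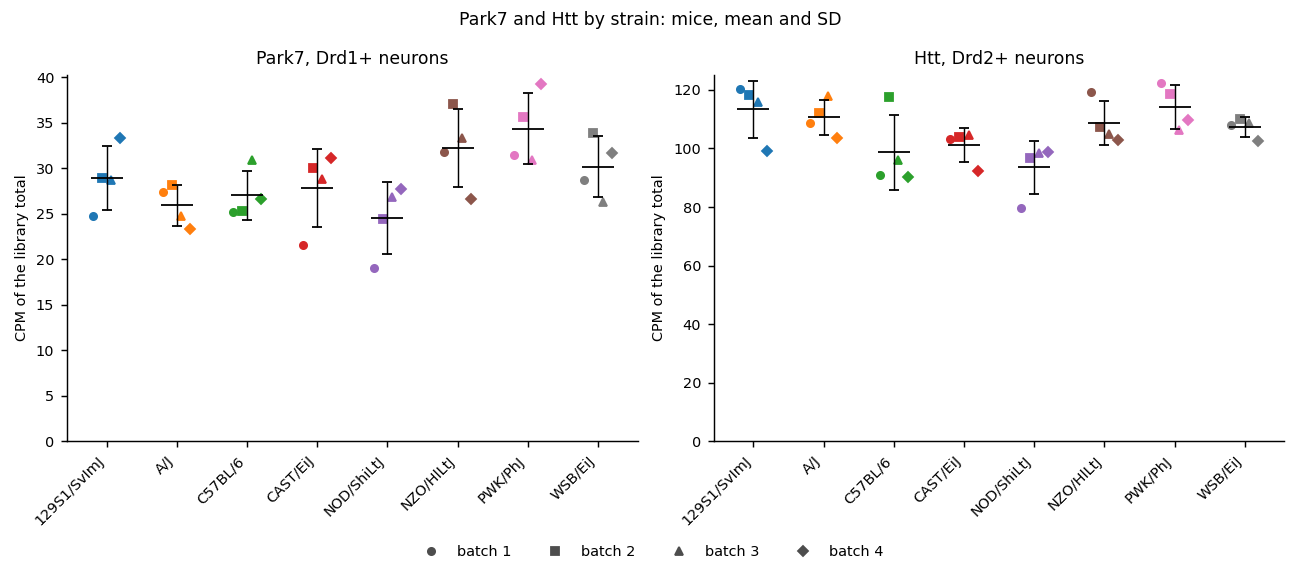
Park7 and Htt levels (CPM of the library total, linear axis from 0) by strain, Park7 in Drd1+ neurons and Htt in Drd2+ neurons, 1 point per mouse with a colour per strain and a shape per batch, and the mean and SD of each strain as black lines. PWK/PhJ has the highest mean (34.3 CPM of Park7 and 114 CPM of Htt) and NOD/ShiLtJ the lowest (24.5 and 93.5 CPM).

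Vps35 and Pink1 were called in single contrasts of 1 strain with the other 7. Vps35 in Drd2+ neurons was 32.6, 34.9, 31.95 and 40.8 CPM in CAST/EiJ (35.1 ± 4.02 CPM) against strain means of up to 48.8 ± 5.27 CPM in WSB/EiJ, with a log2 fold change of -0.31 (SE 0.10; edgeR adjusted p = 0.0194; 28.1% of all genes called); without batch 1 it was -0.22 (adjusted p = 0.226). In Drd1+ neurons Vps35 was 52.2, 44.6, 54.8 and 42.2 CPM in A/J, 0.23 above the others (SE 0.077; adjusted p = 0.0309; 17.2% called), which was lost without batch 1 (0.272), 2 (0.0519) or 3 (0.112) and without batch in the model. Pink1 in Drd2+ neurons was 31.5, 33.9, 33.8 and 34.9 CPM in PWK/PhJ, 0.27 above the others (SE 0.10; adjusted p = 0.0363; 30.3% called), and it was lost when batch 1, 2, 3 or 4 was left out (adjusted p = 0.0624 to 0.125). Other strains overlapped these mice in each case. Over all 9 clusters and 8 strains, 288 such contrasts of a member were fitted and 9 were called, where 10.8% of the contrasts of all genes were called, each adjusted over the genes of its own contrast alone. Of the calls, 3 were in Drd1+ neurons, 3 in Drd2+ neurons and 3 in clusters where the strain term called no member: Lrrk2 in astrocytes, described above, Htt in macrophages and Pink1 in the second Drd1+ cluster.

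Htt in macrophages was 260.3, 122.9, 159.7 and 157.6 CPM in PWK/PhJ, 0.65 above the other 7 strains (SE 0.21; edgeR adjusted p = 0.0195; 13.6% of all genes called). It was lost without batch 1 (0.38, adjusted p = 0.474) or batch 4 (0.0533). Pink1 in the second Drd1+ cluster was 44.8, 52.8, 47.9 and 42.3 CPM in PWK/PhJ, 1.00 above the others (SE 0.32; adjusted p = 0.0369; 8.51% called). It was lost without batch 1 (0.0913), 2 (0.0874) or 4 (0.146) and without batch in the model (0.0761), and it did not pass the filter without batch 3. The strain mean of Htt was highest in PWK/PhJ in 7 of the 9 tested clusters, which come from the same mice. Some margins were small, as in Drd2+ neurons (114.2 against 113.4 CPM in 129S1/SvImJ). By the same count Lrrk2 was highest in C57BL/6 in 6 of 9 clusters and Park7 in CAST/EiJ in 5 of 9. For Lrrk2 these included macrophages (8 counts in C57BL/6) and Nxph1+ interneurons (43.8 against 43.4 CPM in A/J), where it did not pass the filter of the strain test. They also included endothelium, at 190 ± 195 CPM with 1 mouse at 477.2 CPM. How often a strain is highest was not counted for all genes.

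The genes most like each member over 17 clusters of at least 100 nuclei, by Pearson's r of log2(CPM + 1) among 15457 genes, were Pde7b (r = 0.923), 1700003D09Rik (0.909) and Gm48281 (0.903) for Lrrk2; Rps27rt (0.954), Rpl29 (0.945) and Atp5e (0.943) for Pink1; and Uba1 (0.953), Sap18 (0.950) and Gnai2 (0.948) for Park7. For Vps35 they were Topors (0.935), Cnpy2 (0.917) and Tmem179b (0.915), for Htt Zfp583 (0.836), Prmt7 (0.83) and Mri1 (0.822), and for Gch1 Slc39a8 (0.925), Pecam1 (0.923), an adhesion molecule of endothelium, and Tnfsf10 (0.914). Among the members, Pink1 and Park7 (r = 0.81), Vps35 and Park7 (0.78) and Pink1 and Vps35 (0.70) were the most alike. The clusters share libraries and differ in depth, so these values describe likeness only. Over the 32 mice of Drd1+ neurons, with batch means subtracted and 9039 genes compared, the closest genes were Wipf3 (r = 0.889), Clvs1 (0.852) and Fam49b (0.841) for Lrrk2 and, with lower values, Cnot4 (0.756) for Htt, 3110056K07Rik (0.726) for Park7, Cipc (0.706) for Vps35 and Sdha (0.663), a subunit of succinate dehydrogenase, for Pink1.

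Around the members, 8 lists with 149 genes of the same pathways were counted. Between Drd2+ and Drd1+ neurons, against 15.7% of all genes called higher and 15.9% lower, 4 of 24 tested genes of the Pink1 mitophagy pathway were higher in Drd2+ neurons and 2 lower, with a median log2 fold change of -0.00061 against 0.0030 for all genes. Its named genes were Chchd10, a mitochondrial intermembrane protein (0.20, SE 0.029; edgeR adjusted p = 6.1e-09), and Usp30, a deubiquitinase of mitochondria (0.19, SE 0.053; adjusted p = 0.00194). In the Lrrk2 and Rab pathway 4 of 19 were higher and 3 lower (median 0.0088), and the named genes were lower in Drd2+ neurons: Sh3gl2, the endocytic endophilin A1 (-0.26, SE 0.025; adjusted p = 5.42e-16), and Ppm1h, a phosphatase of Rab proteins (-0.22, SE 0.041; adjusted p = 4.2e-05). Of the retromer and its partners 1 of 20 was higher, Snx27 (0.078, adjusted p = 0.00746), and 2 were lower, among them the cargo receptor Sort1 (-0.16, adjusted p = 5.14e-08).

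Of the huntingtin partners 2 of 13 were higher in Drd2+ neurons and 1 lower. Rasd2, the striatal GTPase Rhes, had a mean CPM of 73.6 ± 23.3 in Drd1+ neurons and 88.3 ± 27.7 in the Drd2+ class (0.29, SE 0.026; edgeR adjusted p = 2.51e-17), and the palmitoyltransferase gene Zdhhc13 was at 52.8 ± 10.1 and 33.0 ± 6.30 CPM (-0.66, SE 0.037; adjusted p = 1.3e-30). Among DNA repair genes linked to the onset of Huntington disease 0 of 11 were higher and 4 lower (median -0.065), with Ccdc82 at -0.27. Redox genes around DJ-1 had 1 of 15 higher, Prdx5 (0.15), and 1 lower, the stress kinase gene Map3k5 (-0.73, SE 0.044; adjusted p = 3.15e-17). Of the tetrahydrobiopterin genes 4 were tested and 0 called, and of other Parkinson disease genes 2 of 18 were higher, led by Sncaip, the synuclein-interacting protein (0.32, SE 0.036; adjusted p = 7.96e-11), and 4 lower, among them Uchl1 (-0.19).

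The lists were also counted in 4 other clusters against Drd1+ neurons, over genes that passed the filter on low counts within both clusters. Redox genes around DJ-1 were called higher more often than lower in each. In oligodendrocytes, where 51.0% of all such genes were called higher and 34.8% lower, redox genes were higher in 11 of 15 and lower in 4 (median log2 fold change 0.68 against 0.19 for all genes). In astrocytes (48.3% and 35.3%) they were higher in 10 of 15 and lower in 4 (median 0.84 against 0.15), and in endothelium (42.1% and 44.2%) higher in 9 of 12 and lower in 3 (median 1.55 against -0.055). In macrophages (52.8% and 31.6%) 8 of 18 passed the filter, and these were higher in 8 and lower in 0.

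Huntingtin partners were called lower more often than higher. They were higher in 4 of 12 and lower in 7 in oligodendrocytes, 2 and 8 of 12 in astrocytes (median -0.37), 1 and 5 of 6 in macrophages and 2 and 7 of 9 in endothelium (median -0.77). DNA repair genes were higher in 7 of 10 and lower in 0 in oligodendrocytes and 3 and 4 of 9 in astrocytes, and genes of the Pink1 mitophagy pathway 13 and 6 of 24 and 8 and 6 of 22. These lists are small, and their counts were not tested against the shares of all genes.

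The strain term was also counted over the lists. In Drd1+ neurons, against the 61.7% of all genes, the strain term called 11 of 15 huntingtin partners, 8 of 11 DNA repair genes, 8 of 24 genes of the Pink1 mitophagy pathway, 12 of 19 of the Lrrk2 and Rab pathway, 11 of 20 of the retromer list, 9 of 17 redox genes, 3 of 7 tetrahydrobiopterin genes and 13 of 18 other Parkinson disease genes. In Drd2+ neurons, against 55.9%, the counts were 9 of 13, 7 of 11, 15 of 24, 12 of 19, 11 of 20, 7 of 15, 4 of 8 and 9 of 18 in the same order of lists, so that the low share of the Pink1 mitophagy pathway in Drd1+ neurons was not found there. In Drd1+ neurons the mean CPM of Sncaip was lowest in PWK/PhJ (37.5 ± 3.81) and highest in NZO/HlLtJ (104 ± 6.40; edgeR adjusted p = 2.22e-15), while Rasd2 was lowest in NZO/HlLtJ (52.9 ± 6.19) and highest in PWK/PhJ (130 ± 17; adjusted p = 7.17e-14). The kinase gene Tbk1 was lowest in PWK/PhJ (46.4 ± 7.69) and highest in A/J (91.4 ± 5.23). Pms1, a DNA repair gene, was lowest in NZO/HlLtJ (15.7 ± 0.336) and highest in CAST/EiJ (32.7 ± 2.36). Among the rest, Glo1 was highest in A/J (33.5 ± 5.70 CPM), Sod2, the mitochondrial superoxide dismutase, in WSB/EiJ (81.5 ± 4.83 CPM), Arfgap1 in WSB/EiJ (64.6 ± 12.5 CPM) and Rab12, a Rab protein phosphorylated by Lrrk2, in NZO/HlLtJ (56.7 ± 7.87 CPM). Dctn1, Tbc1d5, Sort1, Tmem175, Nos3 and Nos1 were also called, with adjusted p-values of 0.00043 or less.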

How the data were processed

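Nuclear RNA of the 10x Multiome assay was analysed for 4 pooled libraries of 8 mice each. The authors deposited raw counts per gene and barcode (unit: counts of molecular identifiers, not normalized), and a table that gives the strain, quality and cluster of each barcode as categories (unit: other). Per the submitters' processing notes, bcl2fastq 2.20.0.422 and Cell Ranger ARC 2.0.0 were used and the build is mm10 (GRCm38), so reads of all strains were counted on 1 reference and differences in sequence between strains could change counts. The labels state that nuclei of 1 mouse per strain were pooled in each batch. Per the file headers, the authors assigned each barcode to a strain from RNA and from ATAC reads and recorded a quality filter, a doublet call, a further removal and a cluster; nuclei with a cluster were used, and no filter or doublet caller was added.

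Counts were summed per mouse and cluster, and sums of fewer than 10 nuclei were left out. Levels are counts per 1000000 of that sum, without scaling. Strain was tested with batch as a term, and clusters within mice with the mouse as a block, by edgeR 4.0.16 (TMM, filterByExpr, robust quasi-likelihood F test; R 4.3.3), adjusted by Benjamini-Hochberg over all tested genes and called under 0.05. A single strain was contrasted with the others in the same fits; this had been planned for clusters where the strain term called a member, and the other clusters were added after seeing the data. Neighbours in the order of clusters were compared by sign-flip permutation tests of 100000 resamples (Python 3.11.15, numpy 2.4.6, scipy 1.17.1, pandas 2.3.3), adjusted over 77 pairs. Alternatives were DESeq2 1.42.0, DESeq2's size factors, no scaling, no filter, at least 20 nuclei, no block, and each batch left out. The fits were tested on simulated data. The pairing comes from the labels: a batch number marks a shared pool, and clusters are paired by mouse.

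The members and lists were chosen with earlier results of these data known. Genes named beside the members are the 3 most correlated with each, and per list the 2 called genes with the largest F of the strain term and the 2 with the largest fold change between Drd2+ and Drd1+ neurons. Depth per mouse was 3785535 to 23245935 counts, which limits the rarer clusters most. Some genes that this rule names are not reported here. The matrix of accessible regions by nuclei was not analysed here.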

Additional observations from a re-analysis of the deposited data

Results flagged for a closer look

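Among 16 groups of 4 mice in which a member was called by the strain term, 2 had a mouse far from the others, where chance gives about 1 in 20. Htt in Drd2+ neurons of CAST/EiJ was 92.5 CPM in the mouse of batch 4 and 103.3, 103.8 and 104.7 CPM in the other mice. Htt in Drd2+ neurons of NOD/ShiLtJ was 79.8 CPM in the mouse of batch 1 and 96.9, 98.6 and 98.8 CPM in the other mice, and the NOD/ShiLtJ contrast is the one that falls to -0.13 without batch 1. The effect of strain on Lrrk2 differed between Drd1+ neurons and astrocytes by a test of the difference itself that was added after the levels had been seen (edgeR interaction adjusted p = 0.00093, but 0.0916 without batch 2 and 0.0947 without the mouse as a block), with C57BL/6 highest in Drd1+ neurons (329 CPM) and lowest in astrocytes (32.5 CPM).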

How the results depend on the processing

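Of the values of single members under an alternative, 1199 kept their side of the threshold (135 of these changed sign and passed with neither setting), 42 passed it newly, 68 no longer passed it and 16 changed sign with a call. In astrocytes Vps35 turned to -0.0079 with DESeq2's size factors and -0.068 with no filter, and in macrophages Htt turned to 0.13 with no scaling. Counted per nucleus (differences in counts per 100 nuclei), 32 instead of 6 neighbour pairs passed, 15 that passed by neither measure changed sign, and so did 13 that passed by at least 1: for Htt oligodendrocytes over endothelium (-22.0), macrophages over the first Slc17a7+ cluster (-74.4) and Unknown over the second Slc17a7+ cluster (-50.3); for Lrrk2 astrocytes over Nxph1+ interneurons (-3.36); for Park7 Drd2+ over Drd1+ neurons (-1.65) and oligodendrocytes over astrocytes (-2.94); for Pink1 mural cells over Drd2+ neurons (-6.52), oligodendrocytes over endothelium (-19.6) and the second Drd1+ cluster over Drd1+ neurons (-4.46); and for Vps35 oligodendrocytes over endothelium (-20.9), astrocytes over the first Slc17a7+ cluster (-30.0), the second Drd1+ cluster over Drd1+ neurons (-7.50) and Nxph1+ interneurons over the second Slc17a7+ cluster (-9.54). Counts of members called against Drd1+ neurons include those that passed the filter through the higher cluster alone. In the main setting the 1 member called for Nxph1+ interneurons was Lrrk2, which passed in that way. The same holds for the 1 member called for the cluster Polydendrocyte/Oligodendrocyte. These counts were set by the filter to some extent and are not results about the members. Without the replicate block the members called were 0 instead of 1 for the interaction with astrocytes, 1 instead of 2 for Drd2+ neurons, 2 instead of 1 for Nxph1+ interneurons, 0 instead of 1 for strain in Drd1+ and in Drd2+ neurons, and 0 and 1 instead of 3 and 3 for single strains in these classes; the block moved no other count of members by over 1.5 times. DESeq2 called 1 member for Drd2+ neurons and 2 for strain in Drd2+ neurons. With no filter 1 was called for Drd2+ neurons, 2 for the second Drd1+ cluster, 2 for Nxph1+ interneurons, 2 for strain in Drd2+ neurons, 1 for strain in the second Drd1+ cluster and 5 for single strains in Drd2+ neurons. With no scaling 3 were called for the cluster Polydendrocyte/Oligodendrocyte, 3 for Nxph1+ interneurons, and 2 for strain in Drd1+ and in Drd2+ neurons. Leaving out 1 batch gave 1 to 2 members for Drd2+ neurons, 1 to 2 for the second Drd1+ cluster, 0 to 1 for the interaction with astrocytes, 0 to 1 for strain in Drd1+ neurons, 0 to 2 for strain in Drd2+ neurons, 0 to 1 for strain in oligodendrocytes and in the second Drd1+ cluster, and 0 to 2 for single strains in Drd1+ and in Drd2+ neurons. Among these alternatives, the share of all genes called was counted only for the strain term under DESeq2 in Drd1+ and Drd2+ neurons. It cannot be told for the others whether a shift is particular to the members. The causes of these shifts were not tested. Single-strain calls rest on 4 mice, and counts of Gch1 are too few for strain comparisons outside endothelium.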
